A study of Mus musculus with 6 samples.

Results

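The 708 strongest promoters of protein-coding genes were chosen by their measured signal in an ATAC-seq table of 63430 open regions. A region counted as a promoter when its centre lay within 1000 bp of the transcription start site (TSS) of a protein-coding gene, which 10032 regions did. Of these, 9020 belonged to genes with a single promoter region, and the 708 kept (7.85% of the 9020) had a mean normalised signal of at least 700 over all 6 libraries. The remaining 8312 are called the weaker promoters here. Since the signal itself selected the members, their levels are given as a description and carry no test. The difference between the 2 groups of libraries did not enter the choice.

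The cells were NIH/3T3, an immortalised mouse embryonic fibroblast line, and all 6 libraries came from cells with a knock-in of Cas13d, an enzyme that cuts RNA at the sequence named by a guide RNA. Cells transfected with a guide against the Actg1 mRNA, which encodes cytoplasmic gamma-actin, gave 3 libraries, and cells transfected with a guide against GFP, the control, gave the other 3. The stated question was how degradation of an mRNA bears on transcriptional adaptation, the raised transcription of related genes. In ATAC-seq the Tn5 transposase inserts adapters into accessible DNA, so the signal of a region counts insertions, not transcripts.

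Promoters of widely used genes usually lie in CpG islands, stretches rich in the CG dinucleotide that are mostly unmethylated and depleted of nucleosomes. General activators such as Sp1 and its relatives bind GC boxes there, and NF-Y binds the CCAAT box, and both help to keep the start site open. Early response genes, which serum or stress induce within minutes, hold open promoters and paused polymerase already before induction.

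The sequences of 9 members show what such promoters look like. They are the 250 bases before the start, 5′ to 3′ on the strand of the gene, from RefSeq (GRCm38.p6, the same build as mm10), for members whose RefSeq start lay within 50 bp of the table's. Capitals mark the GC box GGGCGG and the CCAAT box on either strand. The 3 with the highest signal among such members were Khsrp, which encodes an RNA-binding protein of mRNA decay (chromosome 17, 57031508 to 57031757, minus strand), Hdgfl2, which encodes a chromatin-binding protein (chromosome 17, 56079381 to 56079630, plus strand), and Socs1, an inhibitor of cytokine signalling (chromosome 16, 10785537 to 10785786, minus strand).
Khsrp: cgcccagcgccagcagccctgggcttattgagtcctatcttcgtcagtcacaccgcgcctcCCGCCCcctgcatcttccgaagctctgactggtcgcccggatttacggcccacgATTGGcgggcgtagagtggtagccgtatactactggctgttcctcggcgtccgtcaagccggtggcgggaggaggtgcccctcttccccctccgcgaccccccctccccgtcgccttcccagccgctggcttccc
Hdgfl2: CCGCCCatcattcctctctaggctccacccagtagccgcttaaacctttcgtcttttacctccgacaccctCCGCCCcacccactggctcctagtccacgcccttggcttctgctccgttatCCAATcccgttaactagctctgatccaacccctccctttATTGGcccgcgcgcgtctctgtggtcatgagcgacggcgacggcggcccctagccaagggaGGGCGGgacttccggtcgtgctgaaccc
Socs1: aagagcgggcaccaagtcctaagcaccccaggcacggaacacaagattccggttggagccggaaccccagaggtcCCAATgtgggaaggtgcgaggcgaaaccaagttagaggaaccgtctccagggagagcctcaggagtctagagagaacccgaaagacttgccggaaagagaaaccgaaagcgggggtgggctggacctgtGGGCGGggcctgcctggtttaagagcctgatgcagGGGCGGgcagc
The 3 with the largest rises with the Actg1 guide were Ubb, a polyubiquitin gene (chromosome 11, 62550921 to 62551170, plus strand), Bag6, which encodes a chaperone of membrane proteins (chromosome 17, 35134963 to 35135212, plus strand), and Slc35e4, a solute carrier (chromosome 11, 3914665 to 3914914, minus strand).
Ubb: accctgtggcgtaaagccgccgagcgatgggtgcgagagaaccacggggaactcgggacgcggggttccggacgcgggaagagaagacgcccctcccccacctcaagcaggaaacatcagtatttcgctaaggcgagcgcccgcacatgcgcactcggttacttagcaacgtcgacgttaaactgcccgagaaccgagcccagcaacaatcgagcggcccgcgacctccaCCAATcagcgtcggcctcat
Bag6: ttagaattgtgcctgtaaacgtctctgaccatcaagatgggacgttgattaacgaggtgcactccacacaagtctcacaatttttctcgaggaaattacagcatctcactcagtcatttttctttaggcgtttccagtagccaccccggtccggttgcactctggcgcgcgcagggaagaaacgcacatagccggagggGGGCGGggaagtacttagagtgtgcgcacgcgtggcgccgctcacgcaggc
Slc35e4: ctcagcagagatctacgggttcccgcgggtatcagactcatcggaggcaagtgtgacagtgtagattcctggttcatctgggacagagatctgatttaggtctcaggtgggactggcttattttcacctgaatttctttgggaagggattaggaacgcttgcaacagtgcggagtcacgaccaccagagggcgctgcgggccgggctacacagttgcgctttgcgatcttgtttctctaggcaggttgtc
The 3 with the largest falls were Cggbp1, which encodes a protein that binds CGG repeats (chromosome 16, 64851751 to 64852000, plus strand), Golim4, a Golgi membrane protein gene (chromosome 3, 75956950 to 75957199, minus strand), and Sp4, which encodes a GC box factor (chromosome 12, 118301441 to 118301690, minus strand).
Cggbp1: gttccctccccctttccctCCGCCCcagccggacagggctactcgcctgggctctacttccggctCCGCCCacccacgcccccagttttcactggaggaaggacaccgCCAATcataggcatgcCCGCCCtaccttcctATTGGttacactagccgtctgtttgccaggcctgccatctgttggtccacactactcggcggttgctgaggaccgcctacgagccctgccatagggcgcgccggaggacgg
Golim4: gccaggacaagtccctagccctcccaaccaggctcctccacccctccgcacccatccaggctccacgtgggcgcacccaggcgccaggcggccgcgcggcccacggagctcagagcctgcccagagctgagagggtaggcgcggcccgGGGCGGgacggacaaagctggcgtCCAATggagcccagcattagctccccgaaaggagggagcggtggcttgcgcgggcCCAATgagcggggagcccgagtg
Sp4: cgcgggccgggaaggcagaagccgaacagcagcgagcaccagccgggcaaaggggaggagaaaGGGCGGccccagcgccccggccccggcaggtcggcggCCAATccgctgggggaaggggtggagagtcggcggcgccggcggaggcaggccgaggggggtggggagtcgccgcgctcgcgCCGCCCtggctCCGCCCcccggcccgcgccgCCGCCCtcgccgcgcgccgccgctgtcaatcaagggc
In these 250 bases the GC box was found 1, 3 and 2 times in the promoters of Khsrp, Hdgfl2 and Socs1, 0, 1 and 0 times in those of Ubb, Bag6 and Slc35e4, and 3, 1 and 4 times in those of Cggbp1, Golim4 and Sp4. The GC content was 62.8%, 54.4% and 53.6% for the rises and 64.8%, 72.0% and 80.0% for the falls. These 9 were picked for their values and are examples, not a comparison.

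The sequence of the members was described over the RefSeq window of 300 bases, from 250 before the start to 50 after it. Such a window lay inside the region, on the strand of the gene, for 574 of the 708 members (81.1%), of which 563 were the window of the member's own gene and 11 that of another gene starting in the same region. The median GC content was 66.0% in these members, 61.3% in 6039 weaker promoters and 52.7% in all 32851 windows of the table. The ratio of observed to expected CG dinucleotides was at least 0.6, a usual mark of a CpG island, in 90.8% of the members and 80.2% of the weaker promoters. These are shares side by side, and no test of the difference was made.

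Of the motifs searched on both strands, the GC box GGGCGG was present in 85.0% of the members, against 68.7% of the weaker promoters and 35.7% of all windows. The CCAAT box was present in 55.6%, 39.1% and 37.4%. Both boxes together were found in 45.8% of the members and 26.4% of the weaker promoters, and neither in 5.23% and 18.6%. The core CCGGAAG bound by ETS factors was in 15.2% of the members, 21.1% of the weaker promoters and 8.86% of all windows. Part of the NRF1 site, GCGCATG, was in 6.10% of the members, 8.59% of the weaker promoters and 3.91% of all windows. The TATA box TATAAA was rare, at 4.70%, 6.49% and 13.6%. The serum response element, the CArG box bound by SRF, was in 10 members (1.74%), against 1.19% of the weaker promoters and 1.63% of all windows. GGGCGG and the CG count overlap in letters, and a match in these windows is a description and not a binding site.

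The members were long regions with the start inside. Their median length was 1192.5 bp (607 to 2832 bp), against 847 bp for the weaker promoters and 355 bp for all regions, and 693 of the 708 held the TSS. The centre of the region lay a median of 166 bp from the TSS, and 484 members lay within 250 bp. Their signal was also dense, with a median of 754.6 per kb (322.6 to 2247) against 298.6 for the weaker promoters. Among 593 members whose gene is in the RefSeq promoter table, 112 (18.9%) held the start of another protein-coding gene on the opposite strand, against 9.54% of 6646 weaker promoters. The table names 1 gene per region, so the signal of such a region belongs to a pair of promoters. Starts were counted anywhere in a region, the members are longer, and a pair of promoters can reach the signal minimum more easily. The part of either in these shares was not tested.

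By signal, the median member stood at 849 and the highest at 2294, with 187 members at 1000 or more and 25 at 1500 or more. The nearest above the minimum of 700 were Msh6 and Ube2n at 700.5, Fads2 at 701.2 and Acbd5 at 701.3, and the nearest below it were Tmem65 and Amn1 at 699.8, Hmgb1 at 699.5 and Ankrd11 at 699.2. The highest signal belonged to the promoter of Polr2h, a subunit shared by the nuclear RNA polymerases, and the next were Khsrp at 2108, the SET domain gene Setd5 at 2063, Hdgfl2 at 2016 and the phosphatase gene Ppm1b at 1965. Socs1, Sp1, the early response factor Egr1, Sp4 and Brd2 held places among the strongest too, with 1813, 1765, 1742, 1674 and 1672. Per kb, the order was Hdgfl2 at 2247, Khsrp at 2235, Ppm1b at 1703, the acetyltransferase scaffold gene Brpf1 at 1599 and the lysine methyltransferase gene Eef2kmt at 1514. Khsrp, Hdgfl2 and Ppm1b lie on chromosome 17.

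By gene class, the share of genes that were members ran from 1.47% to 28.1%, against 7.85% of all single promoters. The lowest share was that of ribosomal proteins and the highest that of early response factors and regulators. That last list also holds the general GC box factors Sp1 and Sp4. Of 114 early response factors and regulators with a single promoter region, 32 (28.1%) were members, and of 30 targets of SRF and its coactivator MRTF, which respond to the actin state of the cell, 8 (26.7%) were. Members were 4 of 20 p53 targets, 16.8% of 137 chaperone and stress genes, 15.8% of 203 chromatin regulators and 14.4% of 104 genes of central metabolism. Not every class of regulators stood above 7.85%: members were 9 of 126 genes of the transcription machinery (7.14%) and 22 of 336 zinc finger protein genes (6.55%). At the other end, 1 of 68 ribosomal protein genes was a member (Rps21), 2 of 105 respiratory chain genes were (Ndufa11 and Coq10b), and 7 of 216 genes of the extracellular matrix and growth factors were (3.24%). No test of these shares was made. A class of any kind covered 369 members, and 339 fell in none. Each class was a list of genes, and other genes of the same kind can lie outside it.

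As a check of the label, 11 of 15 fibroblast marker genes had a promoter region, with signals from 28.2 for Col3a1 to 937.5 for Vim, the intermediate filament gene of mesenchymal cells and the only marker among the members. Fap, Pdgfra, Tcf21 and Thy1 had none listed. Of the markers of other cell types, 2 of 6 epithelial, 2 of 5 blood, 0 of 4 endothelial, 1 of 4 muscle and 1 of 4 neural genes had a promoter region, between 4.33 and 109.7. The reads in regions were estimated at 5675847 to 9526231 per library, and the members took 8.29 to 8.59% of the signal of each library. Replicates 1 and 2 of the GFP guide agreed within sampling noise (chi-square per region 0.990 over 50824 regions, where counting error alone gives 1, against 1.04 to 1.13 for the other pairs of replicates) and were counted as 1 sample, so every SD of the GFP guide has n = 2 and leaves out the spread between them. Over the members alone, Actg1 guide replicates 1 and 3 (0.946) and 2 and 3 (1.01) also lay within counting error, but over all regions they did not (1.09 and 1.04), and they were kept apart. The labels do not say whether the libraries came from separate cultures, and the p-values measure only the spread between these samples.

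With the Actg1 guide, small changes were found in 349 of the 708 strongest promoters, of which 96 were higher and 253 lower. The call was a limma adjusted p under 0.05 over all 61327 regions tested, of which 41.3% were called, 20.6% higher and 20.7% lower. The corresponding shares of the members were 49.3%, 13.6% and 35.7%, so the excess over the background lay in the lower direction. By library, the members took 8.494, 8.518 and 8.585% of the signal in GFP guide replicates 1, 2 and 3. In Actg1 guide replicates 1, 2 and 3 they took 8.53, 8.285 and 8.372%. Actg1 guide replicate 1 thus lay within the range of the control libraries. Of 8261 weaker promoters tested, 1034 were higher and 1426 lower (29.8% called), and of the 2793 with a mean from 350 to 700, 369 and 648 (36.4%). The split of the calls moved with the scaling: after cyclic loess scaling 149 members were higher and 182 lower, and after scaling to the median of the promoters 121 and 208. Without GFP guide replicate 3 the counts were 44 and 88, and without the mean-variance trend in limma they were 11 and 6.

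The changes were narrow, and in a bulk sample a region open in more cells and one more open in each cell cannot be told apart. The median log2 fold change of the members was -0.05 (range -0.42 to 0.59), against -0.01 over all regions tested, and the quartiles were -0.15 and 0.05. After cyclic loess scaling the medians were -0.0101 and -0.0097, and the gap between the members and all regions was no longer seen. That scaling removes differences between libraries that follow the signal level, and the members were chosen by signal. It therefore cannot show whether the gap is a change of the members. Only 25 called members (3.53%) changed by at least 1.25-fold, 14 up and 11 down, whereas 35.1% of all regions tested were called at that size. A single member passed 1.5-fold. Errors were small at these signals: the median SE of the log2 fold change was 0.0501 in the members, 0.0839 in the weaker promoters and 0.175 over all regions tested. The smallest called change was 0.09 and the largest change not called was 0.13. The 3 libraries of one guide lay wholly above the 3 of the other in 404 members (57.1%), against 50.8% of all regions tested.

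**Figure D1:**
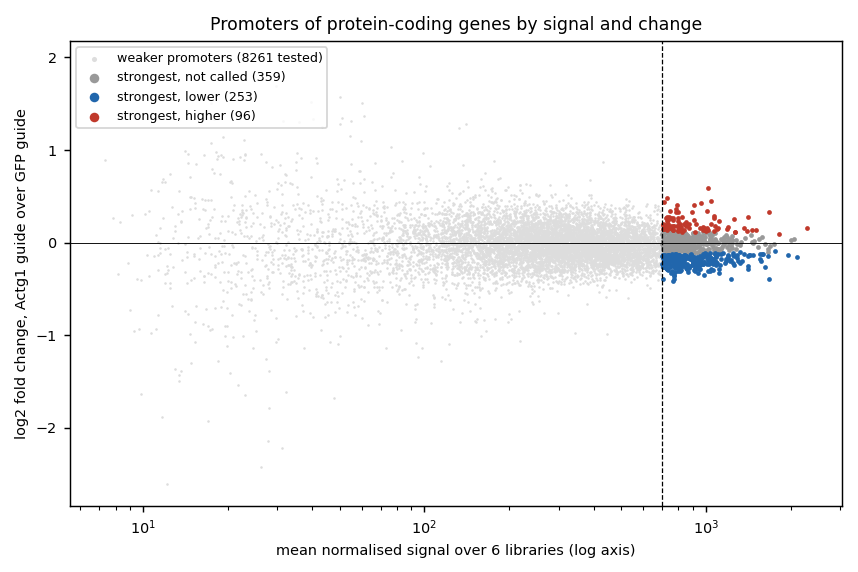
Each point is the promoter region of a protein-coding gene with 1 promoter region; the x axis is the mean normalised signal over 6 libraries (log axis) and the y axis the log2 fold change of the Actg1 guide over the GFP guide. The strongest promoters, to the right of the dashed line at 700, lie between -0.42 and 0.59, and 253 of them are lower and 96 higher by limma.

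The largest rise was at Il3ra, which encodes the alpha chain of the interleukin-3 receptor (chromosome 14, 14345510 to 14348341, the longest region among the members at 2832 bp). Its signal was 820, 752 and 856 in GFP guide replicates 1, 2 and 3 and 1245, 1187 and 1264 in Actg1 guide replicates 1, 2 and 3. All 3 Actg1 guide libraries were thus well above the 3 GFP guide libraries. The group means were 821 ± 49.5 (SD, n = 2) and 1232 ± 40.1 (SD, n = 3), a rise of 1.50-fold (log2 difference 0.59, SE 0.0466, limma adjusted p = 2.31e-13).

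Ubb, one of the genes that supply ubiquitin, rose next (chromosome 11, 62549780 to 62551765). Its signal was 625, 608 and 594 with the GFP guide and 835, 894 and 820 with the Actg1 guide, with no overlap and Actg1 guide replicate 2 the highest. The rise was 1.40-fold (log2 difference 0.49, SE 0.0532, limma adjusted p = 7.00e-10). Rassf8, a gene of the Ras-association domain family, had 827, 930 and 882 with the GFP guide and 1198, 1242 and 1179 with the Actg1 guide (chromosome 6, 145745330 to 145747043). GFP guide replicate 1 was the lowest, and the groups did not overlap (log2 fold change 0.45, SE 0.0444, limma adjusted p = 5.08e-11). Bag6 had 590, 627 and 589 with the GFP guide and 791, 871 and 778 with the Actg1 guide, which is 0.44 higher on the log2 scale. Agbl5, which encodes an enzyme that trims glutamate chains from tubulin, rose by 0.43 on the log2 scale, Slc35e4 by 0.40, Denr, a factor of translation reinitiation, by 0.36, and Mrpl51, of the mitochondrial ribosome, by 0.34.

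The largest falls reached less far than the largest rises and were led by Cggbp1 (chromosome 16, 64851370 to 64852574). Its signal was 878, 850 and 884 with the GFP guide and 690, 641 and 635 with the Actg1 guide. The groups lay far apart compared with their own spread, and the fall was 1.33-fold (log2 difference -0.42, SE 0.0532, limma adjusted p = 2.82e-08). Golim4 had 843, 864 and 904 with the GFP guide and 669, 654 and 681 with the Actg1 guide (chromosome 3, 75956120 to 75957392), which gives -0.39 on the log2 scale. Fam160a2, of a complex that links vesicles to dynein, fell by 0.40 on the log2 scale, the ubiquitin ligase gene Cblb by 0.36, the corepressor gene Tle1 by 0.34 and the deubiquitinase gene Usp28 by 0.34. The largest rises and falls were picked among called members with groups that do not overlap, so the lack of overlap was a condition. The 12 largest rises and the 12 largest falls, of which every one had groups that did not overlap, kept their calls when any 1 library was left out, and in all 131 of the 349 called members did, 43 higher and 88 lower. Without the trend in limma, 17 calls were left, among them Il3ra, Ubb, Rassf8, Cggbp1 and Golim4 but not Sp4, Klf2, Brd2 or Polr2a.

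**Figure D2:**
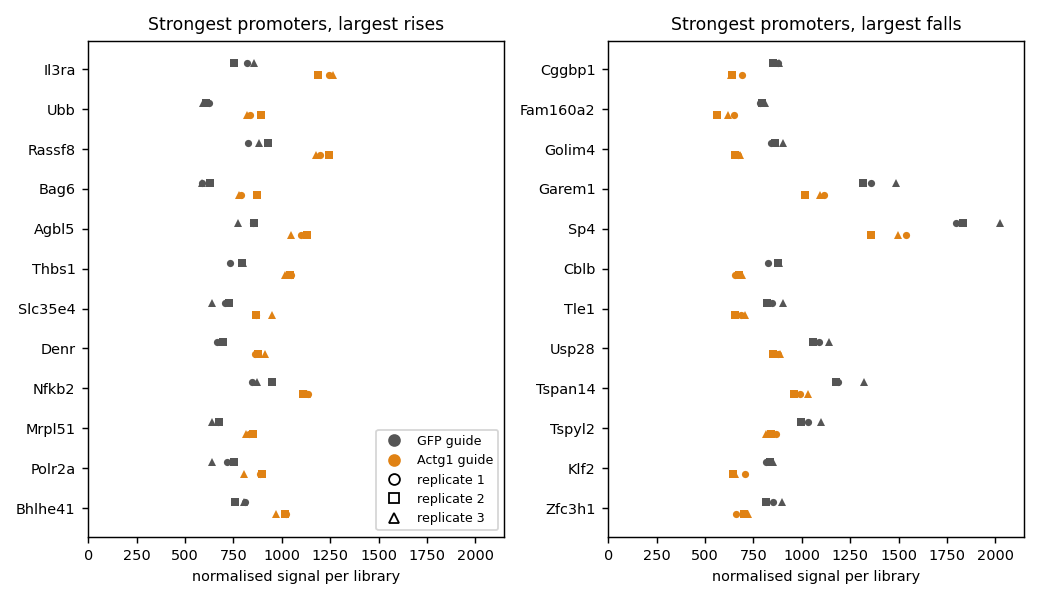
Normalised signal in each library for the 12 largest rises (left) and the 12 largest falls (right) among the strongest promoters that were called with groups that do not overlap; grey is the GFP guide, orange the Actg1 guide, and the shape gives the replicate. For Il3ra the orange points lie between 1187 and 1264 and the grey ones between 752 and 856.

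Early response factors and regulators, with the general factors Sp1 and Sp4 among them, made up 32 members. Of these 8 were higher, 9 lower and 15 not called. The share called was 53.1%, against 49.3% of all members and 41.3% of all regions tested. The rises were Thbs1, Nfkb2, Pim1, Vegfa, Ccn1, Rel, Nfkbia and Socs1. Thbs1, which encodes the matrix protein thrombospondin 1, had 731, 796 and 799 with the GFP guide and 1048, 1045 and 1015 with the Actg1 guide (log2 fold change 0.41, SE 0.0473, limma adjusted p = 3.10e-09). Nfkb2, which encodes the NF-kappaB subunit p100, had 847, 949 and 874 and then 1137, 1111 and 1128 (log2 fold change 0.34, SE 0.0448, limma adjusted p = 4.04e-08). Both had every Actg1 guide library above every GFP guide library. Rel, another NF-kappaB subunit, rose by 0.16 on the log2 scale and Nfkbia, their inhibitor, by 0.14, while the kinase gene Pim1 rose by 0.26 and the growth factor gene Vegfa by 0.24. The calls of Rel and Nfkbia were lost without GFP guide replicate 3 (limma adjusted p = 0.0863 and 0.171) and without Actg1 guide replicate 1 (0.0603 and 0.0664), and that of Nfkbia also without Actg1 guide replicate 3 (0.0897) and GFP guide replicate 1 (0.0664).

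The falls in the same class were led by factors of the SP and KLF families, which bind GC boxes. Sp4 had 1796, 1833 and 2026 with the GFP guide and 1537, 1360 and 1495 with the Actg1 guide, with GFP guide replicate 3 the highest and a gap between the groups (log2 fold change -0.39, SE 0.0435, limma adjusted p = 1.14e-09). Klf2 had 813, 836 and 849 and then 707, 645 and 656, again without overlap (log2 fold change -0.32, SE 0.0536, limma adjusted p = 4.43e-06). Klf11 fell by 0.20, Klf13 by 0.18 and Sp1 by 0.09 on the log2 scale. Klf9 at -0.12 and Klf10 at 0.02 were not called. Jun, a subunit of AP-1, fell by 0.19, while Jund at 0.02 and Egr1 at -0.01 were not called. The calls of Socs1 and Sp1 were lost without GFP guide replicate 3 (limma adjusted p = 0.176 and 0.134), as were those of Klf11 (0.0911) and Jun (0.138), and without that replicate the class had 5 higher and 3 lower. Those of Socs1 and Sp1 were lost as well without Actg1 guide replicate 1 (0.0882 and 0.0658) or 3 (0.0869 and 0.0517), and that of Sp1 without Actg1 guide replicate 2 (0.105), without GFP guide replicate 2 (0.258) and after cyclic loess scaling (0.350).

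SRF and MRTF targets, which include actin genes, did not move together: of the 8 members 2 were higher and 3 lower. The 62.5% called stood beside 49.3% of all members and 41.3% of all regions tested. Actb, which encodes cytoplasmic beta-actin, the closest relative of the targeted gene's product, had 1017, 1050 and 1010 with the GFP guide and 1171, 1234 and 1190 with the Actg1 guide (chromosome 5, 142905692 to 142906996). Its 3 Actg1 guide libraries were the 3 highest, and the rise was 1.17-fold (log2 difference 0.23, SE 0.0435, limma adjusted p = 3.68e-05). Ccn1, a secreted matrix protein gene, had 643, 646 and 670 and then 756, 746 and 759, also without overlap (log2 fold change 0.20, SE 0.0526, limma adjusted p = 0.00223). Tagln2 had 961, 942 and 980 and then 855, 781 and 868, a log2 fold change of -0.21. Pdlim5 fell by 0.21 and the focal adhesion gene Zyx by 0.12, and Egr1, the actin-depolymerising gene Dstn at -0.07 and the vinculin gene Vcl at -0.02 were not called. The 3 falls were lost without GFP guide replicate 3, where Tagln2 had a limma adjusted p of 0.080, Pdlim5 0.086 and Zyx 0.485, while both rises passed. Without the trend in limma 0 of the 8 were called, with an adjusted p of 0.121 for Actb and 0.161 for Ccn1. Zyx also missed the threshold without Actg1 guide replicate 1, 2 or 3 (limma adjusted p = 0.0593, 0.0995 and 0.0554) and after cyclic loess scaling (0.133). The actin cytoskeleton and adhesion class was a separate list that did not hold Actb. Of its 15 members 0 were higher and 4 lower. The 26.7% called stood beside 49.3% of all members and 41.3% of all regions tested. Those calls did not hold without GFP guide replicate 3.

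Among the classes of at least 5 members, the transcription machinery had the largest share of rises, 5 of 9 members, 2 being lower. Its median log2 fold change was 0.14 against -0.05 for all members. Its 55.6% higher stood beside 13.6% of all members and 20.6% of all regions tested, and the difference was not tested. Without the trend in limma 0 of the 9 were called. Brd2, which encodes a bromodomain protein that reads acetylated histones, had 1476, 1501 and 1469 with the GFP guide and 1943, 1844 and 1799 with the Actg1 guide (chromosome 17, 34120939 to 34122896). Every Actg1 guide library was above every GFP guide library, and the rise was 1.26-fold (log2 difference 0.33, SE 0.0374, limma adjusted p = 1.64e-09). Polr2a, which encodes the largest subunit of RNA polymerase II, had 717, 751 and 639 and then 889, 898 and 807, where GFP guide replicate 3 was the lowest of the 6 (log2 fold change 0.33, SE 0.0562, limma adjusted p = 5.43e-06). Polr2h had 2091, 2110 and 2261 and then 2499, 2380 and 2426 (log2 fold change 0.16, SE 0.0335, limma adjusted p = 0.000154). The elongation factor gene Ell rose by 0.15 and Gtf3c6, of a polymerase III factor, by 0.14. The general factor genes Gtf2e2 and Gtf2a1 fell by 0.29 and 0.13, and Med21 and Supt3 were not called. Without GFP guide replicate 3 the class had 3 higher and 1 lower, with Ell, Gtf3c6 and Gtf2a1 no longer called (limma adjusted p = 0.117, 0.0839 and 0.174). Gtf2a1 also missed the threshold without GFP guide replicate 1 (0.0546), without Actg1 guide replicate 1, 2 or 3 (0.0716, 0.0501 and 0.056) and after cyclic loess scaling (0.136).

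Splicing factors and RNA-binding proteins had 7 higher and 3 lower of 18 members. The share called was 55.6%, and in the translation class, taken up below, it was 66.7%. Both stood beside 49.3% of all members and 41.3% of all regions tested, and the differences were not tested. The translation class had a median log2 fold change of -0.0. Without the trend in limma 0 of the 18 were called. The helicase gene Ddx5 had 731, 727 and 718 with the GFP guide and 890, 854 and 876 with the Actg1 guide, with groups that did not overlap (log2 fold change 0.27, SE 0.0498, limma adjusted p = 2.26e-05). The SR protein gene Srsf2 and Luc7l2, a U1 snRNP component, each rose by 0.24. Tra2b and Hnrnpc fell by 0.24 and 0.25, and the RNA-binding protein gene Raly by 0.20. Without GFP guide replicate 3 there were 3 higher and 3 lower, and Srsf2 was not called (limma adjusted p = 0.118). In the translation class, Denr and Gspt1 rose and 4 of 9 fell, among them the cap-binding gene Eif4e by 0.17 and its inhibitor gene Eif4ebp1 by 0.19, both of which missed the threshold without that replicate (0.0845 and 0.0764), where the class had 2 higher and 1 lower.

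**Figure D3:**
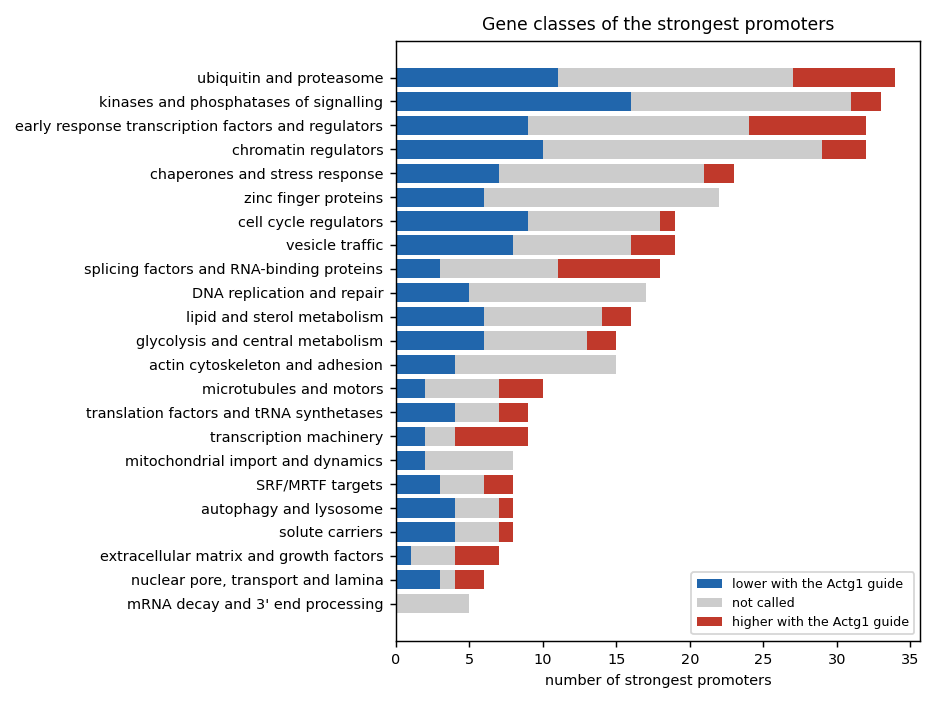
Number of the strongest promoters in each gene class with at least 5 members, split into lower with the Actg1 guide, not called, and higher by limma; a gene can stand in several classes. Kinases and phosphatases have 16 lower and 2 higher of 33, and the transcription machinery 2 lower and 5 higher of 9.

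Of 33 kinase and phosphatase genes and their regulators, 16 were lower and 2 higher (48.5% and 6.06%), with a median log2 fold change of -0.11. Among all members 35.7% were lower and 13.6% higher, and the difference was not tested. The scaffold subunit gene of phosphatase 2A, Ppp2r1a, had 1224, 1203 and 1246 with the GFP guide and 1039, 983 and 1007 with the Actg1 guide, with no overlap (log2 fold change -0.28, SE 0.0441, limma adjusted p = 1.34e-06). Ripk2, a kinase of innate immune signalling, fell by 0.31, the TGF-beta effector gene Smad2 by 0.28 and the PI3-kinase regulatory subunit gene Pik3r1 by 0.27. Rassf8 and the adaptor gene Shc1 were the rises in this list. It did not hold every kinase gene, and Pim1, given above as a rise, was outside it. After cyclic loess scaling the class had 13 lower and 6 higher, and without GFP guide replicate 3 it had 9 lower and 1 higher, Shc1 being lost (limma adjusted p = 0.137).

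In the ubiquitin class, the largest with 34 members, 7 were higher and 11 lower, and after cyclic loess scaling 13 and 9, so its balance turned with the scaling. Ubb and Bag6 gave the largest rises, and Cblb, Usp28 and Rnf138 the largest falls, the last by 0.31. Chaperones and stress genes had 2 higher and 7 lower of 23, with Herpud1 up by 0.17 and Dnajc3, an inhibitor of a stress kinase, down by 0.26. Their median log2 fold change was 0.02, opposite in sign to the balance of the calls. Vesicle traffic genes had 3 higher and 8 lower of 19, where the adaptor subunit gene Ap3m1 rose by 0.33 and Rab22a fell by 0.29. The shares called were 52.9% for ubiquitin, 39.1% for chaperones and 57.9% for vesicle traffic. They stood beside 49.3% of all members and 41.3% of all regions tested. Without GFP guide replicate 3 the counts were 3 and 6 for ubiquitin, 0 and 2 for chaperones, and 2 and 3 for vesicle traffic, and Herpud1 was not called (limma adjusted p = 0.0783).

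Among growth and metabolism genes, the shares called were 52.6% (cell cycle), 29.4% (replication and repair), 50.0% (lipids) and 53.3% (central metabolism). They stood beside 49.3% of all members and 41.3% of all regions tested. The cell cycle class had 1 higher and 9 lower of 19. The rise was Fzr1, an activator of the anaphase-promoting complex, with 667, 698 and 683 with the GFP guide and 811, 775 and 777 with the Actg1 guide, and the falls included the subunit gene Anapc4 by 0.21 and the transcription factor gene E2f1 by 0.13. DNA replication and repair genes had 0 higher and 5 lower of 17, among them the mismatch repair genes Msh6 at -0.23 and Msh3 at -0.21, while the replication genes Pcna at -0.06 and Mcm4 at -0.01 were not called. Lipid and sterol genes had 2 higher and 6 lower of 16: the sterol carrier gene Osbp had 1215, 1104 and 1118 and then 958, 903 and 903, a log2 fold change of -0.31, and Hmgcs1, of cholesterol synthesis, fell by 0.28. Glycolysis and central metabolism had 2 higher and 6 lower of 15. Without GFP guide replicate 3 these counts were 1 and 1 for the cell cycle, 0 and 1 for replication and repair, 0 and 3 for lipids and 1 and 0 for central metabolism. Anapc4, E2f1 and Msh3 were then not called (limma adjusted p = 0.0868, 0.306 and 0.108). E2f1 was also lost without GFP guide replicate 1 (0.0695), without Actg1 guide replicate 1 or 2 (0.069 and 0.144) and after cyclic loess scaling (0.151).

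Regulators of chromatin had 3 higher and 10 lower of 32, but their median log2 fold change was 0.01. The share called was 40.6%, against 41.3% of all regions tested. Cbx5, which encodes the heterochromatin protein HP1 alpha, rose by 0.14, Mbd3 by 0.18 and Chd1 by 0.13, while Hmgb2 fell by 0.24 and Tada3, of a histone acetyltransferase complex, by 0.22. After cyclic loess scaling 7 were higher and 5 lower, and without GFP guide replicate 3 there were 1 and 2. Without that replicate Cbx5 and Chd1 were not called (limma adjusted p = 0.179 and 0.313), and Chd1 was lost without Actg1 guide replicate 1 or 2 as well (0.0943 and 0.0832). The list of zinc finger protein genes did not hold every such gene. E4f1 at 0.28 and Hivep1 at 0.19, called higher, and Sp4 and Klf2, called lower, were outside it. The 22 zinc finger protein genes in the list had 0 higher and 6 lower, led by Zbtb18 and Zbtb20 at -0.26 each. Of these genes 27.3% were called, below the 41.3% of all regions tested. They had 0 and 5 after cyclic loess scaling and 0 and 3 without GFP guide replicate 3. Of the 4 p53 targets, Plk2 fell by 0.18 and Sesn1, Rrm2b and Ddit4 were between 0.02 and 0.06 and not called. The call of Plk2 was lost without GFP guide replicate 3 (limma adjusted p = 0.116). The only interferon response gene, Ifngr1, was at -0.11 and not called (limma adjusted p = 0.077). The members in no class had 41 higher and 130 lower of 339.

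The direction of the change went along with the length of the region. Of the 143 shortest, from 607 to 951 bp, 7 members were higher and 61 lower, with a median log2 fold change of -0.09. Of the 142 longest, from 1531 to 2832 bp, 31 were higher and 40 lower, with a median of -0.0033. Across the 708 members Spearman's coefficient between length and log2 fold change was 0.232, and across the weaker promoters it was 0.081. The regions share their libraries and their neighbours are not independent, so these are descriptions, and the part of length in the class counts was not tested.

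**Figure D4:**
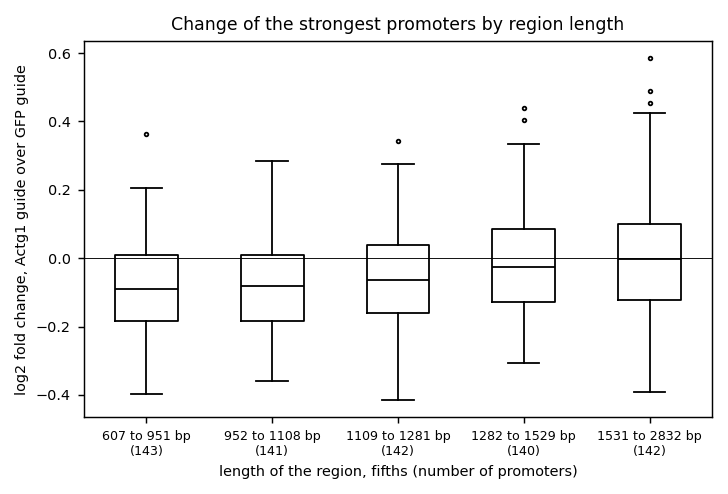
Log2 fold change of the Actg1 guide over the GFP guide for the strongest promoters in 5 groups by region length; boxes give the quartiles, the line the median, and whiskers reach up to 1.5 times the box height. The median moves from -0.09 in the shortest group to -0.0033 in the longest.

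The change also went with base composition. Among the 574 members with a RefSeq window, the 110 with the highest GC content, from 72.7 to 88.0%, had 10 higher and 51 lower with a median log2 fold change of -0.10, and the 128 with the lowest, up to 60.0%, had 18 higher and 34 lower with -0.03. The move was not steady: over the 5 groups from lowest to highest GC content the medians were -0.0257, -0.0554, -0.0235, -0.0604 and -0.0964. The middle group had 22 higher and 41 lower. Spearman's coefficient between GC content and log2 fold change was -0.138, and -0.065 in the weaker promoters. Library by library, Spearman's coefficient between GC content and a member's deviation from its own mean was 0.118, 0.073 and 0.153 in GFP guide replicates 1, 2 and 3 and -0.055, -0.209 and -0.061 in the Actg1 guide replicates. It was positive in each GFP guide library and negative in each Actg1 guide library, with Actg1 guide replicate 2 the farthest out. Members with the GC box had 64 higher and 184 lower of 488 and those without it 17 and 22 of the other 86, and the 27 members with TATAAA had 7 and 6. How far base composition, as a property of the libraries, enters these differences was not tested.

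The strongest promoters were unevenly spread over the genome. Chromosome 17 held 93 of them, 20.8% of its 448 single promoters, followed by chromosome 16 with 15.2% and chromosome 12 with 13.2%, while chromosome 7 had 14 of 663 (2.11%), the X chromosome 2.82% and chromosome 4 2.85%. Regions that are not promoters had a median signal of 52.2 on chromosome 17, 41.2 on chromosome 7 and 35.0 on the X chromosome, and over the 20 chromosomes Spearman's coefficient between that signal and the share of members was 0.644. The copy number of the chromosomes in this line was not analysed here, and its part in the signal minimum was not tested.

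Chromosomes also differed in the change. Of the 32 members on chromosome 19, 12 were higher and 3 lower (median log2 fold change 0.06), and on chromosome 17 there were 22 and 20 of 93 (0.01). On chromosome 1 there were 1 and 19 of 29 (-0.16), on chromosome 9 there were 1 and 26 of 47 (-0.13), and on chromosome 18 there were 0 and 9 of 14 (-0.22), Garem1 at -0.39 being the farthest. Over the 20 chromosomes, the median change of the members and that of the weaker promoters had a Spearman's coefficient of 0.854, and that of the members and of regions that are not promoters 0.663. All these medians come from the same 6 libraries.

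**Figure D5:**
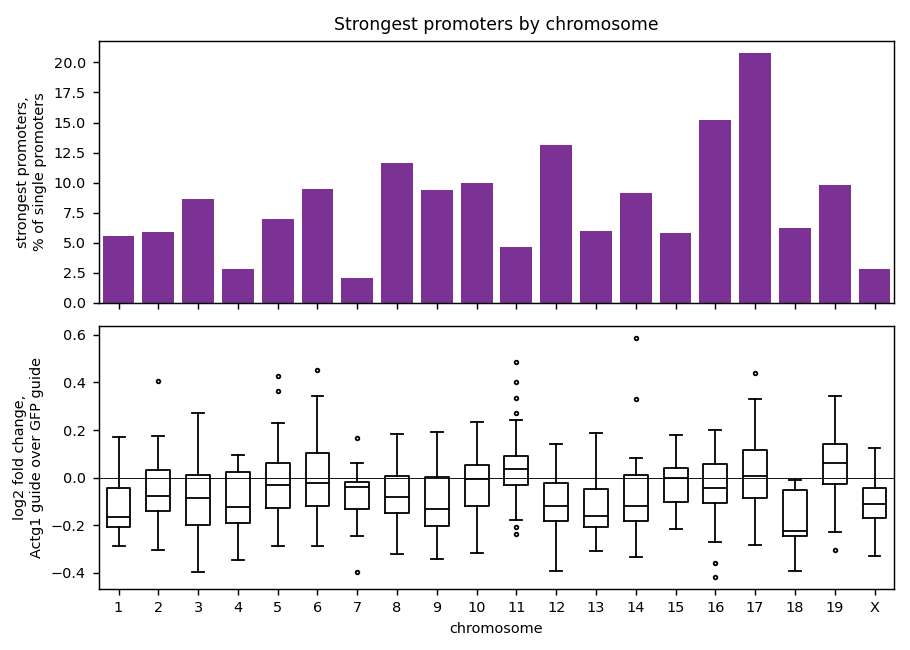
Top, share of the single promoters of each chromosome that are among the strongest, in percent; bottom, log2 fold change of the Actg1 guide over the GFP guide of those members, with boxes for the quartiles and the line for the median. Chromosome 17 stands highest in the top panel at 20.8%, and the medians in the bottom panel run from -0.22 on chromosome 18 to 0.06 on chromosome 19.

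For comparison, 35 regions with a mean of at least 700 belonged to genes with several promoter regions (5 higher, 16 lower), and 238 such regions were no promoter of a protein-coding gene (58 higher, 72 lower; median log2 fold change -0.02). The lower balance was thus wider in the promoters of both kinds, at 35.7% lower and 13.6% higher in the members, than in the strong regions of other kinds, at 30.3% and 24.4%. The difference between these sets was not tested.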

How the data were processed

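The table of the authors gives 1 signal value per region and library for 6 ATAC-seq libraries (NIH/3T3 with Cas13d; 3 with a GFP guide, 3 with an Actg1 guide). Per the submitters' processing notes, mm10 was the build, and DESeq, DESeq2 1.36.0, featureCounts, Picard 3.0.0, STAR 2.7.10a and Trimmomatic 0.39 are named without roles. How peaks were called, whether Tn5 offsets were applied and how the signal was scaled is not given in the sources used here. Each deposited signal value is a read count that was normalised and rounded, as its values show, and the deposited fraction of a region in the gene body was not used. Reads were estimated from the spacing of small values, and their counting error limits single values.

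Members and gene classes were chosen with earlier results of these data known. Replicates 1 and 2 of the GFP guide, whose reads agreed within sampling noise over all regions, were averaged. limma 3.58.1 (R 4.3.3) with a mean-variance trend was fitted to log2(signal + 1) of regions with at least 10 in at least 3 libraries, without covariates, with Benjamini-Hochberg adjustment over all regions tested. Fold changes on that scale set the Actg1 guide over the control. limma was tested on simulated data. Members named were those with the highest signal, the largest called changes with groups that do not overlap, the strongest and most changed of each class, those nearest 700, and all SRF, p53 and interferon targets; other members of a class are named as examples chosen after their values were seen, and so were the 9 sequences. The window of another gene was accepted for 11 members after own-gene windows had been found to cover only 563 of 708. Alternatives were 6 separate libraries with and without a replicate block, a pseudocount of 10, no filter, 2 scalings, no trend, leaving out each library, and other member rules.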

Additional observations from a re-analysis of the deposited data

How the results depend on the processing

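Under all 13 alternative fits, 0 of the 349 called members changed sign. The counts of higher and lower calls were 96 and 253 as reported, 109 and 272 with 6 separate libraries, 94 and 253 with a pseudocount of 10, and 94 and 251 without a filter. Cyclic loess scaling gave 149 and 182 with a median log2 fold change of -0.0101, and scaling to the promoters gave 121 and 208 with -0.0289; the lower share of calls was 72.5% as reported, 55.0% and 63.2%. Without the trend 11 and 6 were left, since limma then gives high and low signals 1 prior spread (median SE 0.0941). Leaving out each library gave 44 to 102 higher and 88 to 243 lower calls, with the lowest counts without GFP guide replicate 3, which leaves that guide 1 averaged sample assumed to vary like the other group. Of the 80 named members called, 30 lost the call there, 8 after cyclic loess scaling and 63 without the trend.

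The replicate block on 6 separate libraries gave 114 higher and 278 lower with 0 of the 349 calls lost and 43 added. Same-numbered libraries correlated at 0.025, 0.014 and 0.016, and differently numbered ones at -0.017 to -0.0. All these values are small, and whether the numbers mark a shared source was not tested.

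Other limits for the members gave 243 higher and 539 lower of 1803 at a signal of at least 500, 27 and 74 of 187 at 1000, 47 and 184 of 484 with the centre within 250 bp of the TSS (median log2 fold change -0.0724), and 101 and 269 of 743 with genes of several promoters. The depth of 5675847 to 9526231 estimated reads and the 2 GFP guide samples left after averaging limit how small a change can be told from the spread.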
